A study of Mus musculus with 12 samples.

Results

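The integrated stress response genes described here are 10 mouse genes around the transcription factor ATF4, namely Atf4, Atf3, Ddit3, Trib3, Chac1, Asns, Sesn2, Ppp1r15a, Cebpb and Eif4ebp1. They were taken by name from the 52654 genes listed in the count files of all 12 libraries, after the Ensembl identifiers were matched without their version to GENCODE M21, and all 10 were found and passed the filter on low counts. The RNA was that of MC3T3-E1 Subclone 14, a clonal preosteoblast line from mouse calvaria that lays down bone matrix in culture, kept for 7 days on titanium discs with β-glycerophosphate (7 mM) and ascorbic acid (5 µg/mL) as osteogenic supplements. The 4 groups, with 3 libraries each, were nanotopography co-cultures, control titanium co-cultures, isolated cultures on nanotopography and isolated cultures on control titanium. In co-culture the osteoblasts shared medium over the last 2 days with osteoclasts, which had been derived from RAW 264.7 macrophages with RANKL at 50 ng/mL and sat in inserts with pores of 0.4 µm. The isolated cultures are described as osteoblasts without those cells, and effects of osteoclasts, of RANKL and of the insert cannot be told apart. The series describes the libraries as biological triplicates of 1 clonal line. The p-values rest on the spread between the 3 libraries within each group, estimated jointly over all 12 libraries.

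In the integrated stress response, kinases that sense unfolded protein, amino acid shortage, heme shortage or viral RNA phosphorylate the translation factor eIF2α, which lowers protein synthesis in general while raising translation of ATF4. ATF4 is a basic leucine zipper factor that binds promoters together with C/EBP partners and raises genes for amino acid supply, for further stress factors and for its own shutdown. In bone, ATF4 is known as a factor that osteoblasts need for amino acid import and for making collagen-rich matrix. The counts report the messages of these genes and not the phosphorylation of eIF2α or the amount of ATF4 protein.

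ATF4 with a C/EBP partner recognises a composite site called the C/EBP-ATF response element, and the promoter windows that hold its letters are shown. The genes were chosen as ATF4 response genes, so how often their windows hold these letters is not independent of that choice. Windows of 250 bases before to 50 bases after each annotated start, from RefSeq on GRCm38.p6, were found for 9 of the 10 genes, all but Eif4ebp1. The letters TGATGNAA, searched on both strands, occurred in 4 of the 9 windows, those of Atf3, Trib3, Chac1 and Asns, and in 3.97% of 32851 windows of the same length over all genes. The windows are written 5′ to 3′ along the gene, with the matching letters in capitals.
Asns (minus strand, chr6:7693160-7693459): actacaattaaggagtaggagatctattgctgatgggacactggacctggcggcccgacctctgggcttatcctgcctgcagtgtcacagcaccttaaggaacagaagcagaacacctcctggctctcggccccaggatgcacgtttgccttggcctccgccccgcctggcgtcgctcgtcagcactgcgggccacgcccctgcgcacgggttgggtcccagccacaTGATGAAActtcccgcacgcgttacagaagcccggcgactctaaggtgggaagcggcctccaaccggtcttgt
Atf3 (minus strand, chr1:191183284-191183583): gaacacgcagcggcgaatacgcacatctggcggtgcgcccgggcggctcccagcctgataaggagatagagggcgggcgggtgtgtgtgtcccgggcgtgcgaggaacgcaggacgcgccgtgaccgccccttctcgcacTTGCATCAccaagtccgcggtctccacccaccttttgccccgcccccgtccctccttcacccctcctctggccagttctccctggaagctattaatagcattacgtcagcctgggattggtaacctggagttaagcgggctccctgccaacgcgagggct
Chac1 (plus strand, chr2:119350992-119351291): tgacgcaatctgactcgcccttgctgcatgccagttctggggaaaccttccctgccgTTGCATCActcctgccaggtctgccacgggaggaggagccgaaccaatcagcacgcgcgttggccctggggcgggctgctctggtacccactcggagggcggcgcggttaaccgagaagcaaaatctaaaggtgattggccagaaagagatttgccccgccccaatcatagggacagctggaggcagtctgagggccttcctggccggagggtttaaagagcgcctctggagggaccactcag
Trib3 (minus strand, chr2:152344011-152344310): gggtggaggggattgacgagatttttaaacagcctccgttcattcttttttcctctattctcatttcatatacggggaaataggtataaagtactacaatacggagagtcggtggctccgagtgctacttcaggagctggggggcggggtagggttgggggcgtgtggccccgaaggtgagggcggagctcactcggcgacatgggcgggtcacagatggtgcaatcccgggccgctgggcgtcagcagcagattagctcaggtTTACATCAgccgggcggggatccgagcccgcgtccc
The match in Asns lies on the strand of the gene, with its first base at -23 from the annotated start, and those in Atf3 at -110, Chac1 at -193 and Trib3 at 14 read on the opposite strand. The cAMP response element TGACGTCA occurred in 1 member window, that of Ppp1r15a at -12, and in 1.79% of all windows, and it is shown because Ppp1r15a is among the genes with the greatest changes below.
Ppp1r15a (minus strand, chr7:45526219-45526518): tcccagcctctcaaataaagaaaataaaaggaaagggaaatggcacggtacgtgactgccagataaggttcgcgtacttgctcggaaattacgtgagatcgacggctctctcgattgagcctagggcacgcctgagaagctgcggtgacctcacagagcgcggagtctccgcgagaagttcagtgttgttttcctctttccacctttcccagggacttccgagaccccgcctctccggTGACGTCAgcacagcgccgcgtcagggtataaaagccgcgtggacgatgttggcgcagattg
The endoplasmic reticulum stress element, searched in its canonical form with CCAAT and CCACG parts, occurred in 0 member windows and in 0.119% of all windows. These matches are letters in a sequence; binding was not measured here.

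Libraries held between 5866842 and 9207831 counts in the 52654 genes used. Levels are given in CPM, counts relative to a library total that was scaled by TMM, a method that sets aside the genes that differ most. For the levels of the cell type markers in this paragraph, the library total was not scaled. Fold changes come from edgeR's quasi-likelihood test on all 12 libraries, with Benjamini-Hochberg adjustment over 13340 tested genes in each comparison, and a gene is called at an adjusted p below 0.05. The osteoblast markers fixed for a check of the cell type had counts in all 4 groups for 10 of 10 genes, and their levels summed to 44496 to 56350 CPM in the nanotopography co-cultures, 73804 to 85709 CPM in the control co-cultures, 84594 to 89903 CPM in isolated nanotopography cultures and 82895 to 96456 CPM in isolated control cultures. Col1a1, Col1a2 and Ibsp made up nearly all of these sums. Over the 10 markers, 2 were higher and 5 lower in co-culture on nanotopography, where 28.7% and 30.4% of all tested genes were called. GC-adjusted, 2 were higher and 2 lower there, beside 18.0% and 21.4% of all tested genes. On control titanium 1 was higher and 3 lower, beside 10.9% and 8.72%, and 1 and 4 GC-adjusted, beside 15.0% and 11.9%. Of 20 macrophage and osteoclast markers, 19 had a count in the nanotopography co-cultures, 16 in the control co-cultures, 11 in isolated nanotopography cultures and 10 in isolated control cultures. Their summed levels overlapped, at 185 to 261, 194 to 207, 182 to 203 and 193 to 202 CPM in the same order of groups, and Ctsk, which isolated cells also expressed, made up most of each sum. The leukocyte gene Ptprc totalled 44 counts in the nanotopography co-cultures and 2 in the control co-cultures, and the osteoclast gene Atp6v0d2 totalled 73 and 7. Ptprc, Tyrobp, Atp6v0d2 and Dcstamp were at 0 in both isolated groups. Other markers went another way. Mmp9 averaged 15.8 CPM in the nanotopography co-cultures and 22 CPM in isolated nanotopography cultures. Fcer1g totalled 1 count in the control co-cultures and 13 in isolated control cultures, and Calcr was at 0 in all groups. Of the 7 markers that passed the filter, 4 were higher and 1 lower in co-culture on nanotopography, where 28.7% and 30.4% of all tested genes were called, and 6 were higher and 0 lower GC-adjusted, where 18.0% and 21.4% were. On control titanium 0 of the 7 were called with or without the adjustment. The filter also admits a gene that is high in a single group. Atp6v0d2 and Cd68 averaged 3.46 and 3.7 CPM in the nanotopography co-cultures, and 0.332 and 0.772 CPM in the control co-cultures. In isolated control cultures Atp6v0d2 was at 0 and Cd68 at 0.986 CPM. The number of these markers called higher on nanotopography is thus not independent of the filter. The part of macrophages or osteoclasts in the results below was not tested. A single principal component took up 55.4% of the variance, and a gene's weight on it went with its GC content (Spearman rho 0.74, a description over genes). On nanotopography, the tested genes with over 55% GC had a median co-culture effect of -0.90 on the log2 scale, and on control titanium one of -0.00. Comparisons that involve nanotopography are therefore given a second time after the trends of each library with GC content and transcript length were removed, called GC-adjusted here. The 5 comparisons below draw on the same 12 libraries, and those that share a group are not independent. The 10 genes ran from 45.6% GC in Ddit3 to 67.2% GC in Cebpb, and Asns at 47.7% and Eif4ebp1 at 48.2% were the other two under 50%.

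The levels of the 10 genes differed widely when set per length. In isolated cells on control titanium, Atf4 had the highest level per kilobase of exon at 89.9 CPM, followed by Asns at 70.1, Eif4ebp1 at 25.1 and Cebpb at 22.4 CPM per kilobase. Ppp1r15a, Chac1, Sesn2, Trib3 and Ddit3 lay between 8.97 and 6.88 CPM per kilobase, and Atf3 was lowest at 1.43. In co-culture on control titanium Atf4 was again highest at 138 CPM per kilobase and Asns next at 115, while Ppp1r15a at 32.2 and Ddit3 at 29.5 stood above Eif4ebp1 at 26.8 CPM per kilobase. Counts behind these values ran from 9 for Atf3 in isolated cells to 3260 for Atf4 in co-culture, so the precision of Atf3 in isolated cells is the lowest of the group.

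**Figure D1:**
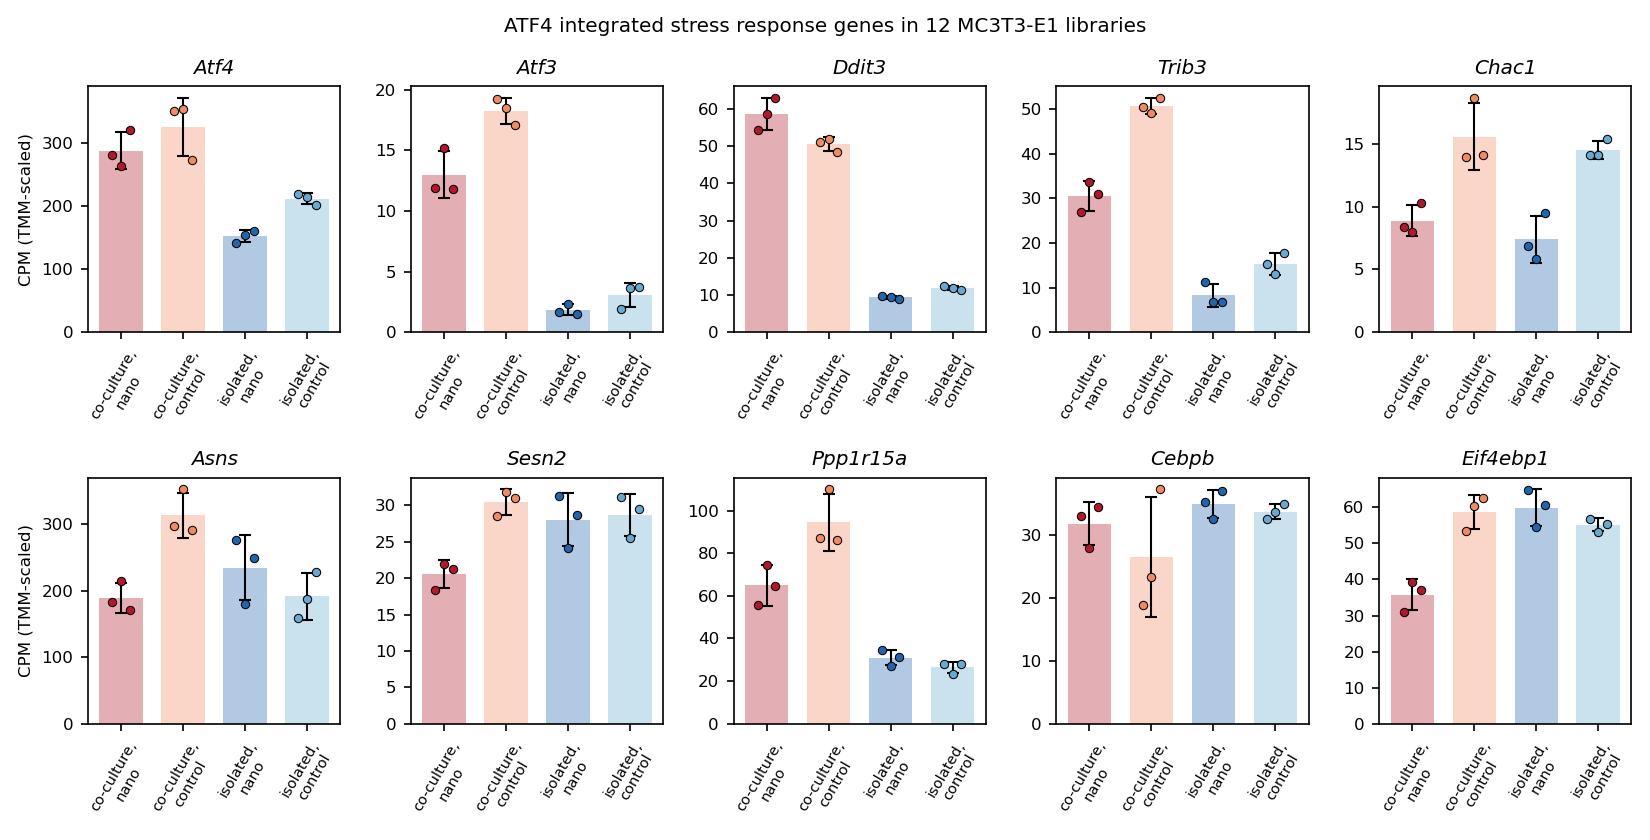
CPM (TMM-scaled, linear axis from 0) of each of the 10 genes in 4 groups, with 1 point per library, the bar at the mean and the error bar at 1 SD of 3 libraries. Atf3, Ddit3, Trib3 and Ppp1r15a are higher in both co-culture groups than in both isolated groups, whereas Eif4ebp1 is lowest in co-culture on nanotopography at 35.8 CPM.

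With osteoclasts on control titanium, 6 of the 10 genes rose and 0 fell. The comparison addresses how the presence of osteoclasts in the shared medium goes with osteoblast messages on the plain surface. Over all tested genes, 10.9% were called higher and 8.72% lower in this comparison. The 6 genes were the stress factors Atf3 and Ddit3, the feedback genes Ppp1r15a and Trib3, Atf4 itself and the amino acid gene Asns. Chac1, Sesn2, Cebpb and Eif4ebp1 were not called. The median log2 fold change over the 10 genes was 0.67, against -0.02 over all tested genes. In bulk RNA, a change in the level of a message per cell and a change in the share of cells that express it cannot be told apart.

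Atf4 (ENSMUSG00000042406.8, chr15:80255184-80257541, plus strand) had 352, 354 and 273 CPM in co-culture on control titanium, against 219, 215 and 202 CPM in isolated cells on control titanium. The 3 co-culture libraries lay above the 3 isolated ones, and the difference was 1.54-fold (log2 fold change 0.62 ± 0.11 SE, edgeR adjusted p = 0.00106). Atf3 (ENSMUSG00000026628.13, chr1:191170296-191218039, minus strand), a zipper factor that cells make rapidly under many stresses, had 19.2, 18.5 and 17.1 CPM in co-culture and 1.95, 3.61 and 3.69 CPM in isolated cells. The groups did not overlap and the rise was 5.95-fold, the greatest of the 10 genes on this surface (log2 fold change 2.57 ± 0.22, edgeR adjusted p = 4.84e-07). Ddit3 (ENSMUSG00000025408.15, chr10:127290774-127296288, plus strand) encodes CHOP, a C/EBP-like factor tied to death under lasting endoplasmic reticulum stress. It had 51.1, 52.0 and 48.4 CPM in co-culture and 12.4, 11.8 and 11.2 CPM in isolated cells. That is a 4.27-fold rise with little spread in either group (log2 fold change 2.10 ± 0.12, edgeR adjusted p = 4.31e-09). GENCODE M21 holds a second gene model named Ddit3 that shares 105 exon bases with the one used, and it had 0 counts in the 1 file that reaches it. The 3′ end of Ddit3 also shares 68 bases with Mars on the other strand, and reads there cannot be assigned because no source used here says whether strand was counted.

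Among the feedback genes, Ppp1r15a (ENSMUSG00000040435.12, chr7:45522916-45526268, minus strand) encodes GADD34, which brings a phosphatase to eIF2α and so restarts translation. It had 87.1, 110 and 86.3 CPM in co-culture and 27.9, 23.3 and 27.9 CPM in isolated cells. All co-culture libraries were higher, by 3.6-fold (log2 fold change 1.85 ± 0.14, edgeR adjusted p = 1.97e-07). Trib3 (ENSMUSG00000032715.9, chr2:152337422-152344032, minus strand) encodes a pseudokinase that binds ATF4 and restrains it. It had 50.5, 49.1 and 52.6 CPM in co-culture and 15.2, 13 and 17.8 CPM in isolated cells. The rise was 3.33-fold (log2 fold change 1.73 ± 0.16, edgeR adjusted p = 1.35e-06). Asns (ENSMUSG00000029752.12, chr6:7675169-7693254, minus strand), which encodes asparagine synthetase, had 297, 353 and 292 CPM in co-culture and 159, 187 and 229 CPM in isolated cells. The groups did not overlap, and the rise was 1.64-fold (log2 fold change 0.71 ± 0.16, edgeR adjusted p = 0.00407). These 6 calls held in each of the 6 fits that left out 1 library of the comparison, and all 6 were called GC-adjusted as well, where 15.0% of all tested genes were called higher and 11.9% lower. The GC-adjusted log2 fold changes were 2.52 for Atf3, 2.16 for Ddit3, 1.78 for Ppp1r15a, 1.77 for Trib3, 0.72 for Asns and 0.58 for Atf4.

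The other four genes overlapped between the groups on control titanium. Chac1 (ENSMUSG00000027313.3, chr2:119351229-119354381, plus strand) encodes an enzyme that breaks down glutathione and had 14.0, 18.7 and 14.1 CPM in co-culture and 14.1, 14.1 and 15.4 CPM in isolated cells (log2 fold change 0.10 ± 0.18, edgeR adjusted p = 0.718). Its promoter window holds the same response element letters as those of Atf3, Trib3 and Asns. Sesn2 (ENSMUSG00000028893.8, chr4:132492032-132510501, minus strand) encodes a leucine-binding brake on mTORC1 and had 0.09 ± 0.13 (edgeR adjusted p = 0.685), with means of 30.5 ± 1.78 CPM in co-culture and 28.7 ± 2.91 CPM in isolated cells (SD, n = 3 each). Eif4ebp1 (ENSMUSG00000031490.6, chr8:27260329-27276674, plus strand), whose product holds back cap-dependent translation, also had 0.09 ± 0.11 (edgeR adjusted p = 0.615). Cebpb (ENSMUSG00000056501.3, chr2:167688915-167690418, plus strand), a binding partner of ATF4, had 18.9, 23.3 and 37.3 CPM in co-culture and 32.5, 33.7 and 34.9 CPM in isolated cells. The first 2 co-culture libraries were below every isolated one and the third above them (log2 fold change -0.36 ± 0.18, edgeR adjusted p = 0.173). Without co-culture control replicate 3 the value was -0.66 with an edgeR adjusted p of 0.00499. Cebpb shares 312 of its 1504 exon bases with an annotated transcript of Tmem189 on the other strand.

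With osteoclasts on nanotopography, the same comparison on the modified surface, 5 of the 10 genes rose and 2 fell, where 28.7% of all tested genes were called higher and 30.4% lower. Ddit3, Atf3, Trib3, Ppp1r15a and Atf4 rose, and Sesn2 and Eif4ebp1 fell. Asns, Chac1 and Cebpb were not called. GC-adjusted, 8 rose and 2 fell, where 18.0% of all tested genes were called higher and 21.4% lower. The median over the 10 genes was 0.59, and 1.68 GC-adjusted, against -0.00 and -0.01 over all tested genes.

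Ddit3 had 54.2, 58.6 and 63.0 CPM in co-culture on nanotopography, against 9.75, 9.39 and 9 CPM in isolated cells on nanotopography. Every co-culture library was above every isolated one, by 6.24-fold (2.64 ± 0.12 on the log2 scale, edgeR adjusted p = 1.18e-10, and 2.50 ± 0.12 GC-adjusted). Atf3 had 11.9, 15.2 and 11.8 CPM in co-culture and 1.68, 2.35 and 1.53 CPM in isolated cells. Its rise of 6.90-fold was the greatest of the 10 genes without the GC adjustment (log2 fold change 2.79 ± 0.25, edgeR adjusted p = 1.88e-07) and with it (3.12 ± 0.23). Trib3 had 26.9, 33.6 and 31.1 CPM in co-culture and 11.3, 6.75 and 6.79 CPM in isolated cells. It rose by 1.89 ± 0.18 on the log2 scale (edgeR adjusted p = 3.54e-07), and by 2.85 ± 0.15 GC-adjusted. Ppp1r15a had 55.5, 74.5 and 64.5 CPM in co-culture and 34.5, 27.2 and 31.4 CPM in isolated cells. The log2 fold change of Ppp1r15a was 1.07 ± 0.14 (edgeR adjusted p = 9.57e-06), and 1.75 ± 0.11 GC-adjusted. Atf4 had 281, 264 and 321 CPM in co-culture and 142, 154 and 161 CPM in isolated cells, a rise of 0.92 ± 0.12 (edgeR adjusted p = 5.22e-06) or 1.61 ± 0.13 GC-adjusted. The rise of these 5 genes was thus called on either surface and with or without the GC adjustment.

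Eif4ebp1 fell on nanotopography, with 31.0, 39.3 and 37.2 CPM in co-culture and 64.7, 54.6 and 60.6 CPM in isolated cells. The groups did not overlap, and the log2 fold change was -0.74 ± 0.12 (edgeR adjusted p = 5.12e-05) and -0.80 ± 0.11 GC-adjusted. Asns had 183, 215 and 171 CPM in co-culture and 276, 180 and 249 CPM in isolated cells. The second isolated library lay among the co-culture ones, and the log2 fold change of -0.31 ± 0.16 was not called (edgeR adjusted p = 0.0973), whereas the GC-adjusted value of -0.42 ± 0.15 was (adjusted p = 0.0259). Without isolated nano replicate 2 the unadjusted value of Asns was -0.45, with an edgeR adjusted p of 0.0123.

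For 3 further genes the call on nanotopography rested on the GC adjustment. Sesn2 had 18.4, 22.0 and 21.3 CPM in co-culture and 31.3, 24.1 and 28.7 CPM in isolated cells. It fell without the adjustment (log2 fold change -0.44 ± 0.14, edgeR adjusted p = 0.00986) and rose with it (0.56 ± 0.12, adjusted p = 0.000772), so no direction can be given. Without isolated nano replicate 1 its unadjusted value was -0.36 with an edgeR adjusted p of 0.0567. Chac1 had 8.35, 8 and 10.3 CPM in co-culture and 6.89, 5.87 and 9.51 CPM in isolated cells (0.26 ± 0.21, edgeR adjusted p = 0.279), and its GC-adjusted value was 1.19 ± 0.19 (adjusted p = 6.18e-05). Cebpb had 33.1, 27.9 and 34.5 CPM in co-culture and 35.3, 32.6 and 37.0 CPM in isolated cells (-0.14 ± 0.18, edgeR adjusted p = 0.531), and 2.09 ± 0.17 GC-adjusted (adjusted p = 1.42e-08). Cebpb lies at the edge of the range over which the GC trend was estimated, with 20 of 13340 tested genes (0.15%) above its 67.2% GC.

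**Figure D2:**
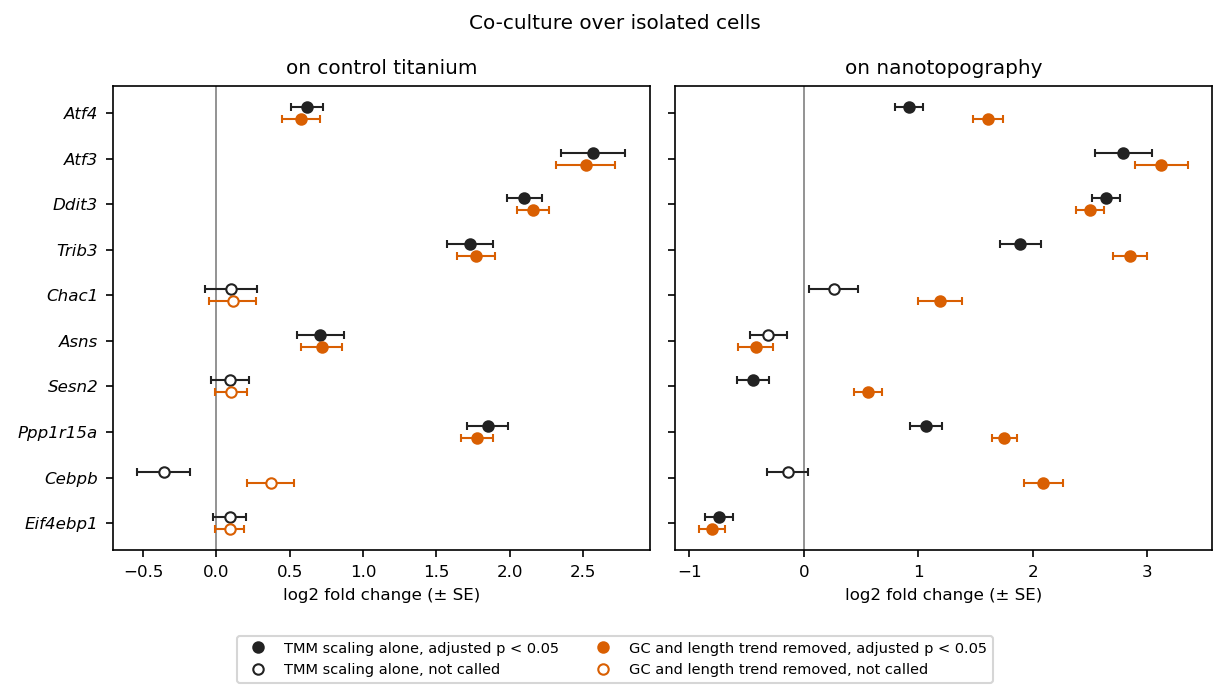
Log2 fold change of co-culture over isolated cells for the 10 genes, on control titanium and on nanotopography, with bars of 1 approximate SE; black points use TMM scaling alone, orange points the GC and length adjustment, and filled points are called. On control titanium black and orange lie close together except for Cebpb. On nanotopography Asns, Sesn2, Chac1 and Cebpb change their call or sign and Eif4ebp1 stays at -0.74 and -0.80.

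In co-culture, nanotopography went with lower levels of 7 of the 10 genes and higher levels of 0. This comparison of the 2 surfaces called 23.3% of all tested genes lower and 18.6% higher. The 7 genes were Trib3, Chac1, Asns, Eif4ebp1, Sesn2, Ppp1r15a and Atf3. GC-adjusted, 2 were lower and 1 was higher, where 11.2% of all tested genes were called lower and 7.17% higher. Asns and Eif4ebp1 were lower both ways, and Cebpb was the higher one.

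Asns averaged 190 ± 22.4 CPM in co-culture on nanotopography and 314 ± 33.9 CPM in co-culture on control titanium (SD, n = 3 each), with no overlap between the libraries. The log2 fold change was -0.73 ± 0.16 (edgeR adjusted p = 0.00203) and -0.81 ± 0.14 GC-adjusted (adjusted p = 0.000977). Eif4ebp1 averaged 35.8 ± 4.33 CPM on nanotopography and 58.8 ± 4.77 CPM on control titanium, again with no overlap (-0.71 ± 0.12 on the log2 scale, edgeR adjusted p = 0.000307, and -0.75 ± 0.11 GC-adjusted, adjusted p = 0.000143). Trib3 averaged 30.6 ± 3.41 CPM on nanotopography and 50.7 ± 1.78 CPM on control titanium (-0.73 ± 0.15, edgeR adjusted p = 0.00169), but its GC-adjusted value was -0.03 ± 0.12 (adjusted p = 0.897). Chac1 at -0.81 ± 0.18, Sesn2 at -0.57 ± 0.13 and Ppp1r15a at -0.54 ± 0.13 likewise had GC-adjusted values that were not called, at -0.13, 0.17 and -0.00. Atf3 had -0.49 ± 0.18 (edgeR adjusted p = 0.0365, GC-adjusted -0.23, adjusted p = 0.346). The call of Atf3 was lost without co-culture control replicate 1 (-0.46, adjusted p = 0.0919), replicate 2 (-0.49, adjusted p = 0.0902) or replicate 3 (-0.54, adjusted p = 0.0532), and without co-culture nano replicate 1 (-0.43, adjusted p = 0.121) or replicate 3 (-0.43, adjusted p = 0.118). Ddit3 averaged 58.6 ± 4.39 CPM on nanotopography and 50.5 ± 1.88 CPM on control titanium and was not called (0.21 ± 0.10, edgeR adjusted p = 0.103). Atf4 at -0.18 ± 0.11 was not called either (edgeR adjusted p = 0.212; GC-adjusted 0.35, adjusted p = 0.0607). Cebpb had 0.28 ± 0.18 (edgeR adjusted p = 0.23) and 1.37 ± 0.17 GC-adjusted. Without co-culture control replicate 3 the unadjusted value of Cebpb was 0.59, with an edgeR adjusted p of 0.00779.

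In isolated cells, nanotopography went with lower levels of Atf4, Trib3 and Chac1, and the other seven genes were not called. Of all tested genes 5.39% were called lower and 4.32% higher, and 1.74% and 3.71% GC-adjusted. Chac1 had 6.89, 5.87 and 9.51 CPM in isolated cells on nanotopography and 14.1, 14.1 and 15.4 CPM in isolated cells on control titanium, a difference of -0.97 ± 0.19 on the log2 scale (edgeR adjusted p = 0.0149, GC-adjusted -1.21). Trib3 had -0.89 ± 0.19 (edgeR adjusted p = 0.0185, GC-adjusted -1.12) and Atf4 -0.48 ± 0.12 (edgeR adjusted p = 0.024, GC-adjusted -0.68). The libraries of the 2 surfaces did not overlap for any of these 3 genes, and they were the genes called lower GC-adjusted as well. The calls were not stable to the loss of 1 library. Without isolated control replicate 1 the values for Atf4, Trib3 and Chac1 were -0.44, -0.88 and -0.98 with edgeR adjusted p-values of 0.117, 0.0835 and 0.0656. Without isolated control replicate 2 they were -0.46, -0.99 and -0.99 (adjusted p = 0.0851, 0.0549 and 0.0591), and without isolated nano replicate 3 they were -0.51, -0.76 and -1.18 (adjusted p = 0.118, 0.119 and 0.0655). Without isolated nano replicate 1, Atf4 had -0.43 (adjusted p = 0.121) and Chac1 -0.92 (adjusted p = 0.078). Asns gained a call without isolated nano replicate 2, at 0.45 with an edgeR adjusted p of 0.0363. Over all tested genes 1295 were called in this comparison with all libraries. The number was 3 without isolated control replicate 1 or 2 or isolated nano replicate 3, 65 without isolated nano replicate 1, 2145 without isolated control replicate 3 and 2877 without isolated nano replicate 2.

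Whether the co-culture effect differed between the surfaces was tested as the interaction, the log2 co-culture effect on nanotopography minus that on control titanium. It was called for 5 of the 10 genes, 1 higher and 4 lower, where 22.4% of all tested genes were called higher and 25.4% lower, so the number of genes called is itself near the background. Asns had -1.02 ± 0.22 (edgeR adjusted p = 0.00153), the net of a fitted effect of -0.31 on nanotopography and 0.71 on control titanium. Eif4ebp1 had -0.83 ± 0.16 (edgeR adjusted p = 0.000847), from -0.74 on nanotopography and 0.09 on control titanium. Their GC-adjusted interactions of -1.14 ± 0.20 (adjusted p = 0.000912) and -0.89 ± 0.15 (adjusted p = 0.000569) were called too. Without the adjustment, each was called in all 12 fits that left out 1 library. The unadjusted interaction of Asns ranged from -1.18 to -0.90 over those fits and that of Eif4ebp1 from -0.90 to -0.74.

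The other interactions depended on the GC adjustment. Ppp1r15a had -0.78 ± 0.20 (edgeR adjusted p = 0.00464), with 64.8 ± 9.51 CPM in co-culture on nanotopography and 94.5 ± 13.6 CPM in co-culture on control titanium, but -0.03 ± 0.15 GC-adjusted (adjusted p = 0.927). Ddit3 had 0.54 ± 0.17 (edgeR adjusted p = 0.0147) and 0.34 ± 0.17 GC-adjusted (adjusted p = 0.157). Sesn2 had -0.53 ± 0.19 (edgeR adjusted p = 0.0283) and 0.46 ± 0.16 GC-adjusted (adjusted p = 0.0459), with opposite signs. Its unadjusted call was lost without co-culture control replicate 2 (-0.49, adjusted p = 0.0684) or 3 (-0.51, adjusted p = 0.0544), co-culture nano replicate 1 (-0.46, adjusted p = 0.0705), isolated control replicate 2 (-0.46, adjusted p = 0.0818) and isolated nano replicate 1 (-0.45, adjusted p = 0.0838) or 3 (-0.52, adjusted p = 0.0574). Atf4, Trib3, Chac1 and Cebpb were not called without the adjustment, at 0.30, 0.16, 0.16 and 0.22, and were called with it, at 1.03, 1.09, 1.09 and 1.71. Without co-culture control replicate 3 the unadjusted interaction of Cebpb was 0.55 (edgeR adjusted p = 0.0294). Atf3 was not called either way (0.21 ± 0.35, edgeR adjusted p = 0.634; GC-adjusted 0.60, adjusted p = 0.216). GC-adjusted, 5 genes were called higher and 2 lower, where 7.68% of all tested genes were called higher and 13.2% lower.

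**Figure D3:**
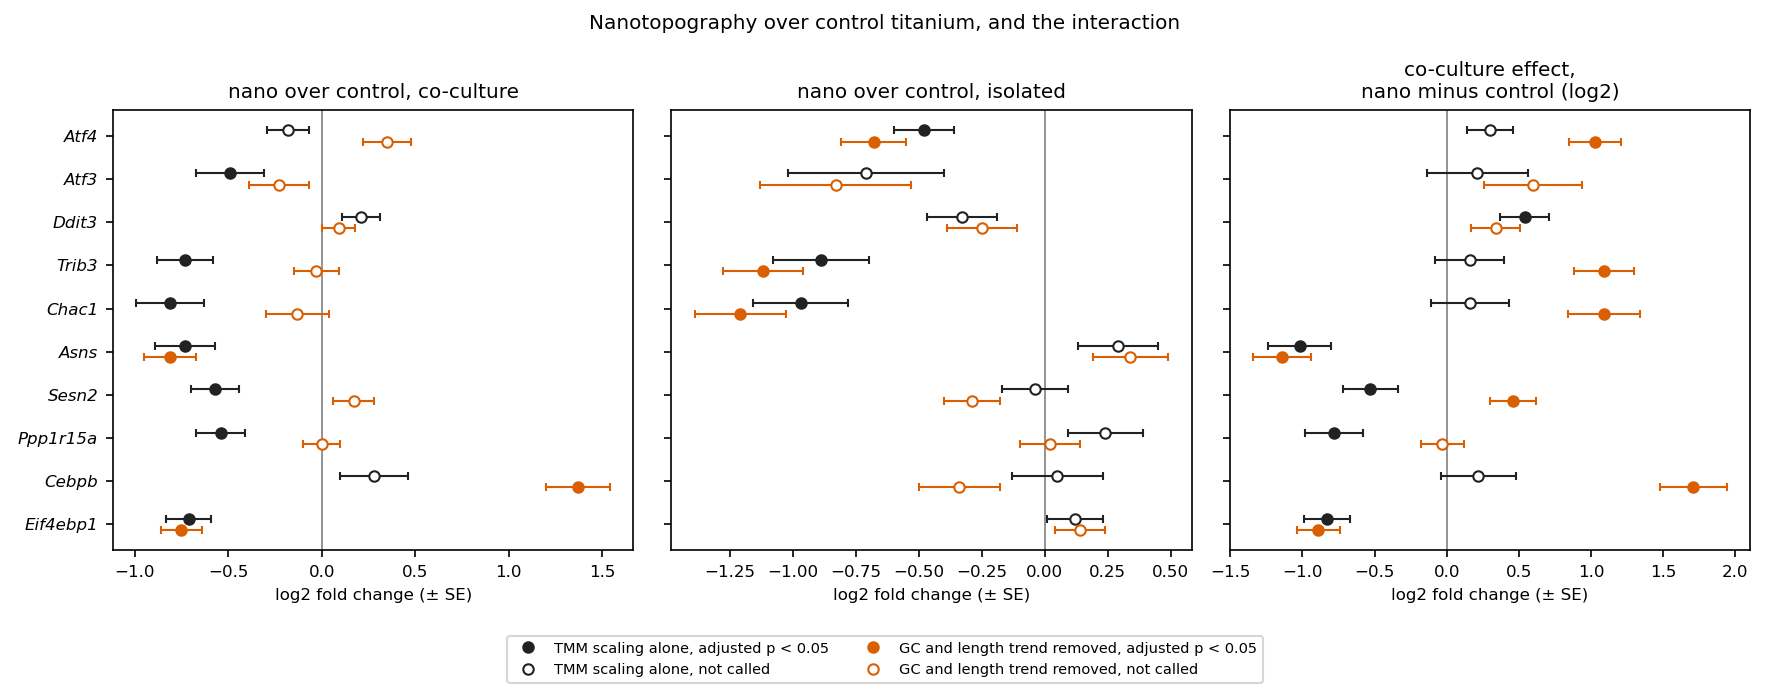
Log2 fold change of nanotopography over control titanium in co-culture and in isolated cells, and the interaction (co-culture effect on nanotopography minus that on control titanium), for the 10 genes with bars of 1 approximate SE; black is TMM scaling alone, orange the GC and length adjustment, and filled points are called. Asns and Eif4ebp1 are lower in co-culture and in the interaction both ways, at -1.02 and -0.83 without the adjustment, whereas Sesn2 changes sign between black and orange.

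The order of the group means differed among the 10 genes. Ddit3, Atf3, Trib3, Ppp1r15a and Atf4 had both co-culture groups above both isolated groups. For Atf4 the 2 co-culture groups overlapped, with 264 to 321 CPM on nanotopography and 273 to 354 CPM on control titanium. The isolated groups overlapped for Ppp1r15a, with 27.2 to 34.5 CPM on nanotopography and 23.3 to 27.9 CPM on control titanium, and for Atf3, with 1.53 to 2.35 CPM and 1.95 to 3.69 CPM. Eif4ebp1 and Sesn2 had co-culture on nanotopography lowest and the other three groups close together, which for Sesn2 did not hold GC-adjusted, where the effect of co-culture on nanotopography was 0.56. Eif4ebp1 had 54.6 to 64.7 CPM in isolated cells on nanotopography, 53.3 to 56.8 CPM in isolated cells on control titanium and 53.4 to 62.5 CPM in the control co-cultures. These 2 genes were each other's nearest member by the root mean square difference of log2 CPM, centred on each gene's mean over the 12 libraries (0.122). Chac1 was ordered by the surface in CPM, with both groups on nanotopography at or below 10.3 CPM and both on control titanium at or above 14.0 CPM. GC-adjusted, the surface effect of Chac1 was -0.13 in co-culture and -1.21 in isolated cells, so this order did not hold with the adjustment. Asns was highest in co-culture on control titanium, and its other three groups overlapped. Cebpb overlapped between neighbouring groups throughout.

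By the same measure, the expressed genes outside the group that were most like Atf4 among 8020 protein-coding genes with a mean of at least 10 CPM were Bnip3l (0.106), Cd80 (0.12) and Irf2bp2 (0.137). Ddit3 was most like the prostaglandin synthase gene Ptgs2 (0.184), the protease inhibitor gene Timp3 (0.218) and Ero1l (0.237), an endoplasmic reticulum oxidase gene. Asns was most like the glycolysis genes Pgk1 (0.105) and Ldha (0.115), and Thap4 (0.119). All of these share the 12 libraries and their composition, and the distances are a description.

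Around the 10 genes, the list of amino acid and one-carbon targets of ATF4, with 31 genes of which 29 were tested, had 12 higher and 1 lower in co-culture on control titanium, where 10.9% of all tested genes were called higher and 8.72% lower. Its median log2 fold change was 0.34, against -0.02 over all tested genes. Without isolated control replicate 1 the list had 7 higher, where the number higher over all tested genes was 844, against 1459 with all libraries. Slc3a2, the shared chain of several amino acid exchangers, had 339 ± 34.2 CPM in co-culture and 120 ± 18.4 CPM in isolated cells (SD, n = 3 each; log2 fold change 1.5 ± 0.14, edgeR adjusted p = 1.04e-06). The tRNA synthetase genes Sars at 0.94 ± 0.14 and Aars at 0.74 ± 0.11 and the aspartate transaminase gene Got1 at 0.92 ± 0.15 also rose (edgeR adjusted p = 0.000193, 0.000198 and 0.000372). On nanotopography the same list had 5 higher and 14 lower with a median of -0.28, where 28.7% and 30.4% of all tested genes were called. GC-adjusted it had 7 higher and 8 lower with a median of 0.04, where 18.0% and 21.4% were called. The interaction was called lower for 19 and higher for 1 of the 29 genes, where 25.4% of all tested genes were called lower and 22.4% higher, and the median was -0.83 against -0.05 over all tested genes. GC-adjusted it was called lower for 11 and higher for 0, where 13.2% and 7.68% were called, with a median of -0.37 against -0.03. Sars at -1.21 ± 0.20 (GC-adjusted -0.73), Got1 at -1.09 ± 0.21 (-0.69), Shmt2 at -1.61 ± 0.20 (-0.75) and Aldh18a1 at -1.10 ± 0.20 (-0.55) were called lower both ways, as Asns was, and the GC-adjusted interactions of Slc3a2 at -0.33 and Aars at -0.22 were not called (adjusted p = 0.0947 and 0.167). Shmt2 encodes the mitochondrial serine hydroxymethyltransferase and Aldh18a1 the enzyme that opens proline synthesis.

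Of 18 tested genes that sense stress or set eIF2 activity (kinases, eIF2 and eIF2B subunits, phosphatase partners), 2 were higher and 2 lower in co-culture on control titanium, with a median of 0.04. These counts are near the background of 10.9% higher and 8.72% lower over all tested genes. Eif2ak3, which encodes the endoplasmic reticulum kinase PERK, had 92.8 ± 6.37 CPM in co-culture on control titanium and 119 ± 8.2 CPM in isolated cells (-0.37 ± 0.10, edgeR adjusted p = 0.0129). It was lower in co-culture on nanotopography as well (-0.44 ± 0.10, edgeR adjusted p = 0.000879, and -0.27 GC-adjusted, adjusted p = 0.0179). Dnajc3, an inhibitor of these kinases and a chaperone, fell on control titanium (-0.61 ± 0.15, edgeR adjusted p = 0.00798). Ppp1r15b, the constitutive partner of the eIF2α phosphatase, rose there by 0.29 ± 0.09, and Dele1, which relays mitochondrial stress in human cells, rose by 0.44 ± 0.14 (edgeR adjusted p = 0.0388 for both). These 4 calls on control titanium were lost with 1 or more of the libraries left out. Without isolated control replicate 1 none of them remained, with Dnajc3 at -0.44 (edgeR adjusted p = 0.0635), Eif2ak3 at -0.33 (0.0653), Ppp1r15b at 0.25 (0.151) and Dele1 at 0.37 (0.154). The calls of Eif2ak3, Ppp1r15b and Dele1 were also lost without isolated control replicate 2 (-0.35, 0.29 and 0.35) or co-culture control replicate 2 (-0.31, 0.30 and 0.45) and without co-culture control replicate 1 (-0.33, 0.26 and 0.49), and that of Dele1 without co-culture control replicate 3 (0.42). The calls of Ppp1r15b and Dele1 were lost without a low-count filter as well (edgeR adjusted p = 0.163 and 0.0567), and that of Ppp1r15b when only the groups compared were fitted (adjusted p = 0.0594). On nanotopography the list had 7 higher and 6 lower, where 28.7% and 30.4% of all tested genes were called, and 4 higher and 5 lower GC-adjusted, where 18.0% and 21.4% were. Gcn1l1, an activator of the amino acid sensing kinase GCN2, was lower in co-culture there (-1.36 ± 0.14, edgeR adjusted p = 8.97e-07, and -0.59 GC-adjusted, adjusted p = 6.78e-05). Eif2s2, an eIF2 subunit gene, had 0.94 ± 0.17 (edgeR adjusted p = 0.000194) but -0.02 GC-adjusted (adjusted p = 0.893). Dnajc3 was called higher in co-culture on nanotopography, with 58.4 ± 5.06 CPM against 44 ± 6.93 CPM in isolated cells. Its GC-adjusted value was -0.22 and not called (adjusted p = 0.111). The unadjusted call was lost without isolated nano replicate 3 (0.31, edgeR adjusted p = 0.13), among others.

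The ATF6 and XBP1 branches of the unfolded protein response had 5 higher and 4 lower of 22 tested genes on control titanium, with a median of 0.03, where 10.9% and 8.72% of all tested genes were called. Without co-culture control replicate 1 the number higher was 3, and without isolated control replicate 2 it was 2. Over all tested genes 1154 and 803 were called higher in those fits, against 1459 with all libraries. Dnajc3 is counted in this list as well as in that of eIF2 control. The chaperone and folding genes Manf at -0.47 ± 0.10 and Dnajb11 at -0.55 ± 0.13 fell (edgeR adjusted p = 0.00472 and 0.00603), and Crebrf, a regulator of the stress factor CREB3, rose by 1.40 ± 0.12 (edgeR adjusted p = 8.66e-07). On nanotopography 6 were higher and 10 lower, against 28.7% and 30.4% of all tested genes, and 5 higher and 5 lower GC-adjusted with a median of -0.11, against 18.0% and 21.4%. Manf was lower in co-culture there both ways (-1.03 and -0.81). Hsp90b1, which encodes the chaperone GRP94, rose in co-culture on nanotopography by 1.17 ± 0.13 (edgeR adjusted p = 2.35e-06, GC-adjusted 0.52, adjusted p = 4.4e-05). Atf6b was lower in co-culture on nanotopography at -1.47 ± 0.19 (edgeR adjusted p = 6.52e-06), with a GC-adjusted value of -0.28 that was not called (adjusted p = 0.14).

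Of 25 tested further targets and partner factors, 10 were higher and 2 lower on control titanium, where 10.9% and 8.72% of all tested genes were called. Their median was 0.21, against -0.02 over all tested genes. Without isolated control replicate 2, 6 were higher, where the number higher over all tested genes was 803, against 1459 with all libraries. Gpt2 is counted in this list as well as in that of amino acid and one-carbon targets. Gadd45a, a gene induced by growth arrest and DNA damage, had 7.3 ± 1.89 CPM in co-culture and 1.3 ± 0.418 CPM in isolated cells (SD, n = 3 each; 2.51 ± 0.30, edgeR adjusted p = 2.44e-05). The autophagy receptor gene Sqstm1 rose by 1.26 ± 0.13, the stress-responsive gene Ndrg1 by 1.48 ± 0.16 and Nfe2l2, which encodes the antioxidant factor NRF2, by 0.78 ± 0.09 (edgeR adjusted p = 3.51e-06, 1.02e-05 and 2.37e-05). On nanotopography these genes had 11 higher and 6 lower, beside 28.7% and 30.4% of all tested genes, and 11 higher and 5 lower GC-adjusted, beside 18.0% and 21.4%. Atf5, a close relative of Atf4, rose on control titanium by 0.59 ± 0.14 (edgeR adjusted p = 0.00722). In co-culture on nanotopography Atf5 was lower at -0.58 ± 0.14 (edgeR adjusted p = 0.00213) but higher at 0.80 GC-adjusted (adjusted p = 2.44e-07). Jdp2 encodes a zipper factor that dimerises with ATF3 and JUN relatives. It was lower in co-culture on nanotopography at -1.19 ± 0.14 (edgeR adjusted p = 2.77e-06) and at -0.35 GC-adjusted (adjusted p = 0.0159).

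Of 11 tested genes linked to CHOP and cell death, which include Trib3 itself, 5 were higher and 0 lower on control titanium, where 10.9% and 8.72% of all tested genes were called. On nanotopography 6 were higher and 4 lower, beside a background of 28.7% and 30.4%, and GC-adjusted 4 were higher and 2 lower, beside 18.0% and 21.4%. Ero1l had 185 ± 10.7 CPM in co-culture on control titanium and 57.7 ± 4.41 CPM in isolated cells (1.68 ± 0.14, edgeR adjusted p = 4.84e-07), and on nanotopography 235 ± 34.9 CPM in co-culture and 38.6 ± 8.67 CPM in isolated cells (2.60 ± 0.15, edgeR adjusted p = 1.25e-09; GC-adjusted 1.87). The death receptor gene Tnfrsf10b rose on control titanium by 0.79 ± 0.13 (edgeR adjusted p = 0.000395) and was not called on nanotopography (0.15 ± 0.13, edgeR adjusted p = 0.335), a difference that was itself called (interaction -0.64 ± 0.18, edgeR adjusted p = 0.00894; GC-adjusted -0.59, adjusted p = 0.015). Car6, a carbonic anhydrase gene of low level, rose on control titanium, with 4.01 ± 0.538 CPM in co-culture on control titanium and 0.397 ± 0.0651 CPM in isolated cells (3.27 ± 0.45, edgeR adjusted p = 8.24e-05). The BH3 death gene Bbc3 and the kinase gene Dapk3 were not called for co-culture on control titanium. On nanotopography they were lower in co-culture than in isolated cells, at -2.01 ± 0.24 and -2.19 ± 0.19 (edgeR adjusted p = 3.63e-06 and 1.2e-07). GC-adjusted, Dapk3 was still called there at -0.60 and Bbc3 was not (-0.17, adjusted p = 0.477).

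**Figure D4:**
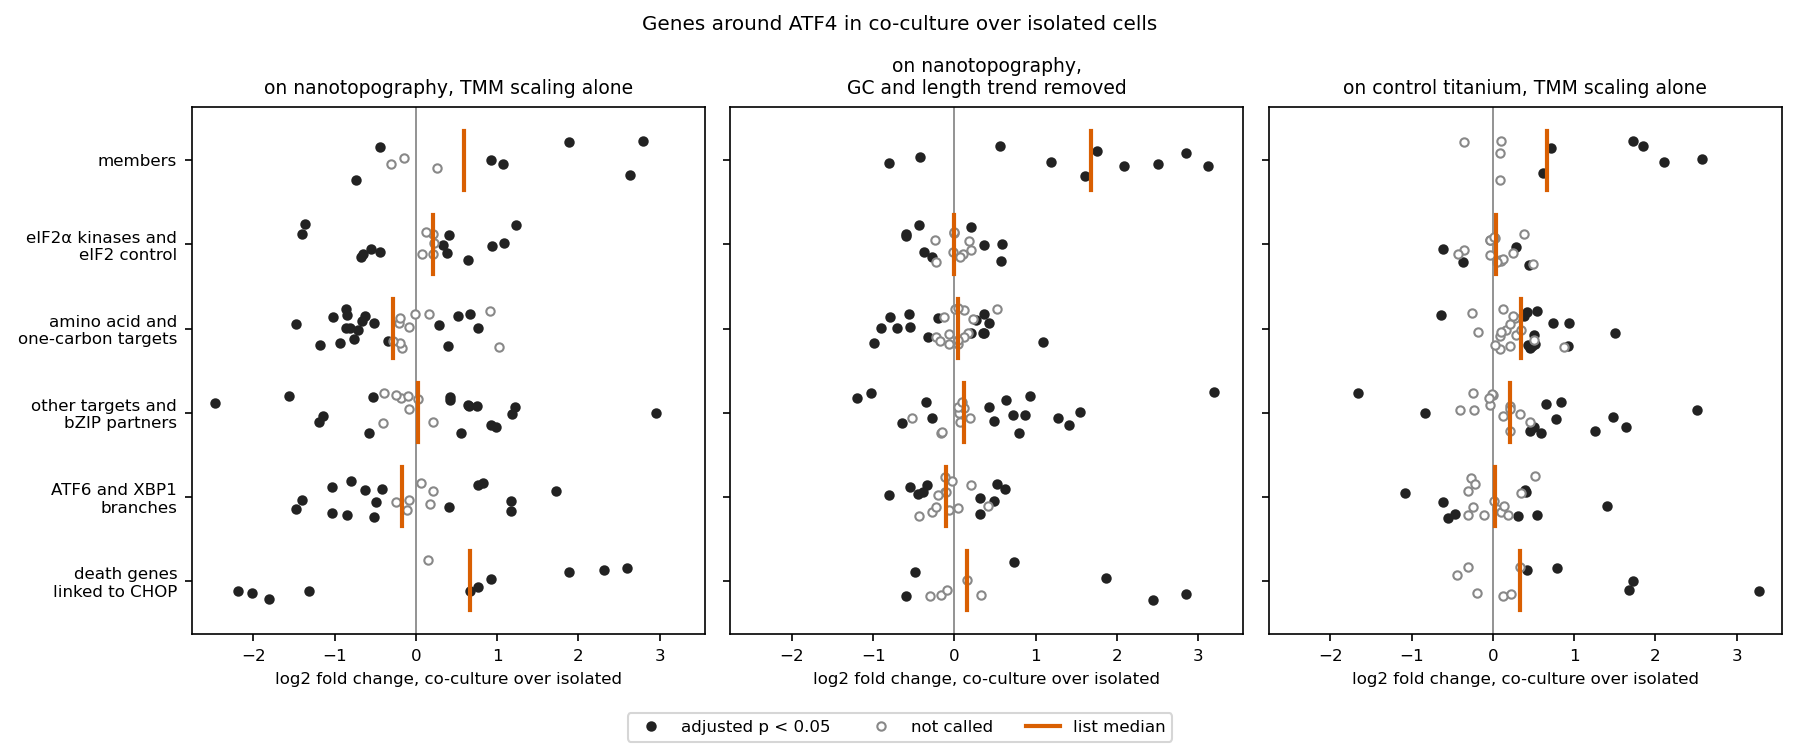
Log2 fold change of co-culture over isolated cells for the 10 genes and 5 lists of related genes, on nanotopography with TMM scaling alone and with the GC and length adjustment, and on control titanium; each point is a gene, filled where called, and the orange bar is the list median. The list medians on control titanium run from 0.03 for the ATF6 and XBP1 branches to 0.67 for the 10 genes.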

How the data were processed

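RNA sequencing was deposited for 12 libraries as raw read counts per gene, 1 file per library. Tools named without roles, per the submitters' processing notes, are STAR 2.4, HTSeq, cutadapt, FastQC 0.63 and DESeq2, and the build is mm10; the annotation release and strand setting are not given in the sources used here. Libraries were built with SMARTer chemistry, per the labels' protocols. Of the 12 files 11 end within a line, so the 52654 genes complete in all were used. They hold 99.924% or more of a library's deposited counts, and gene identities came from GENCODE M21 (GRCm38).

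The counts were fitted with edgeR 4.0.16 under R 4.3.3 (filterByExpr, TMM, quasi-likelihood F test, 4 group means, Benjamini-Hochberg over 13340 genes in each comparison, called below 0.05). The coefficient of biological variation was 12.3%. The standard error is the absolute log2 fold change over the square root of F. GC-adjusted fits add to the offsets each library's loess trend (span 0.3) of log2 CPM (prior count 2) with GC content and length of the longest transcript. Such an adjustment cannot tell a technical trend from true changes linked to GC content. Alternatives were edgeR's RLE factors, no low-count filter, DESeq2 1.42.0, a replicate block, no mitochondrial or rRNA-like genes, only the groups compared and leaving out each library. The 10 genes, the lists and the alternatives were chosen with earlier results of these data known. The further genes named are, per list, the 4 with the smallest p for co-culture on control titanium and the next 2 for the interaction.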

Additional observations from a re-analysis of the deposited data

Results flagged for a closer look

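Without the GC adjustment, the co-culture effect was called different between the surfaces for 5 of the 10 genes. The test was the interaction of edgeR's fit (co-culture effect on nanotopography minus that on control titanium). Over all tested genes 22.4% were called higher and 25.4% lower by this test, so the count is near the background. The log2 differences were -1.02 for Asns, -0.83 for Eif4ebp1, -0.78 for Ppp1r15a, -0.53 for Sesn2 and 0.54 for Ddit3. GC-adjusted, those of Asns at -1.14 and Eif4ebp1 at -0.89 were called again, those of Ppp1r15a at -0.03 and Ddit3 at 0.34 were not, and that of Sesn2 at 0.46 was called with the opposite sign. Atf4, Trib3, Chac1 and Cebpb were called only GC-adjusted, at 1.03, 1.09, 1.09 and 1.71. With the adjustment 7.68% of all tested genes were called higher and 13.2% lower, and which genes differed thus depended on it. The ribosomal RNA-like genes Gm26917 and Gm42418, whose share of counts moves with the groups, held 0.636 ± 0.248% of counts in the nanotopography co-cultures, 1.84 ± 0.289% in the control co-cultures, 6.27 ± 2.38% in isolated nanotopography cultures and 3.81 ± 1.44% in isolated control cultures (SD, n = 3 each). The mitochondrial ribosomal RNA genes mt-Rnr1 and mt-Rnr2 held 11.6 ± 3.75%, 6.49 ± 0.304%, 5.14 ± 1.05% and 8.17 ± 1.55% in the same order of groups. With Gm26917, Gm42418 and the mitochondrial genes left out, the 5 interactions called without the GC adjustment were called as before.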

How the results depend on the processing

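Of the 50 log2 fold changes of the 10 genes over 5 comparisons, RLE factors, the replicate block and leaving out mitochondrial and rRNA-like genes left all 50 on their side of the threshold with their sign, and DESeq2 49. No pairing of the libraries by replicate number was seen: correlations of deviations between same-numbered libraries ran from -0.39 to 0.30, and 4 of 12 libraries matched their own number best. Deviations from means of 3 libraries cannot exclude such a pairing. With the block, 6, 7, 3, 7 and 5 of the 10 genes were called for the co-culture effect on control titanium, the same on nanotopography, the surface in isolated cells and in co-culture, and the interaction, as without it, and of the list genes Ppp1r15b lost its call on control titanium (0.29, adjusted p = 0.0593). Without a low-count filter, 3 of the 10 genes were called in the interaction, where Ddit3 and Sesn2 were lost (adjusted p = 0.0669 and 0.069), and 2100 of all genes for the surface in isolated cells, against 1295 with it. Asns gained a call without the filter for co-culture on nanotopography (-0.32, edgeR adjusted p = 0.0279).

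The GC adjustment moved more, with 30 values on their side, 6 that lost and 7 that gained a call and 7 with another sign. For Cebpb these were 0.37 for the co-culture effect on control titanium, 2.09 on nanotopography and -0.34 for the surface in isolated cells (0.36, 2.08 and -0.34 with the block). For Sesn2 they were 0.56 on nanotopography, 0.17 for the surface in co-culture and 0.46 for the interaction (0.56, 0.18 and 0.46 with the block), and for Atf4 0.35 for the surface in co-culture (0.36 with the block). Of the list genes, Dnajc3 had -0.22, Eif2s2 -0.02 and Atf5 0.80 on nanotopography and Atf5 0.00 in the interaction. Of the 10 genes, 3 were called for the surface in co-culture with the adjustment and 3 with the block added, against 7. Over all genes the adjusted counts were 5260 for co-culture on nanotopography, 727 for the surface in isolated cells, 2445 for the surface in co-culture and 2780 for the interaction, and with the block 5051, 489, 2185 and 2508, against 7892, 1295, 5599 and 6383. The cause was not tested.

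When 1 library was left out, the genes called ranged from 1436 (without isolated control replicate 2) to 2976 for co-culture on control titanium, against 2622 with all, from 3 to 2877 for the surface in isolated cells and from 3274 (without co-culture nano replicate 1) to 5818 for the surface in co-culture. Of the 10 genes, 0 to 4 were called for the surface in isolated cells. Values near 0 that changed sign were those of Chac1 for co-culture on control titanium (-0.03 to 0.20) and Sesn2 for the surface in isolated cells (-0.12 to 0.06). With 9 to 31 counts a library in isolated cells, depth limits the precision of Atf3 most.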
